A study of Mus musculus with 10 samples.

Results

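The proneural factors and neuroblast genes described here are 8 of the 23230 features, each named by a gene symbol, whose RNA levels were measured in 10 cultures of a mouse glioma model. They were chosen by symbol, and all 8 were found: Neurog2 and Neurod1, Hes6 and Insm1, Dcx, Tubb3 and Stmn2, and Rest. The cells began as astrocytes from the cerebral cortex of C57BL/6 mice, at postnatal day 5 by the labels of the astrocyte libraries, that lacked p16/p19 (Ink4a/Arf -/-) and carried a retroviral vector for human EGFRvIII, written EGFR*. The 3 AstroEGFR* libraries (AstroEGFR*1, *2 and *3) are these cells, 1 library from each of 3 astrocyte batches. The 3 AstroEGFR* Zfp423 libraries are the same batches after infection with a vector for Zfp423, a zinc-finger transcription factor. The 4 PT libraries are glioma propagating cells grown from primary tumours that such astrocytes formed in the brains of CD1 Nude mice, with batch 1 giving PT1 and PT4, batch 2 PT2 and batch 3 PT3. The batch of each PT was taken from figure labels in the paper, since the sample labels do not give it. All cultures were below passage 10. AstroEGFR* were grown with serum and PT without it, so the tumour step and the medium cannot be told apart, and fewer cells of a type cannot be told apart from less RNA per cell.

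Proneural factors are basic helix-loop-helix proteins that commit neural progenitors to become neurons. Neurog2 and Neurod1 act in succession in the cortex, Hes6 and Insm1 are switched on downstream of such factors, and young migrating neurons, or neuroblasts, then make the cytoskeletal proteins encoded by Dcx, Tubb3 and Stmn2. Rest is a zinc-finger repressor that binds RE1 elements and keeps many neuronal genes, Stmn2 among them, silent outside neurons.

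Levels are given in FPKM (sequenced fragments scaled by the transcript's length and the library's size), so genes can be set side by side. The depth, estimated from the FPKM that 1 fragment is worth, was 0.0723 of that of PT1 in AstroEGFR*3 and 0.0941 in PT3, against 0.503 to 0.986 in the other 7 libraries. Gapdh, a gene that every cell uses, ranged from 0.0106 to 50.1 FPKM, and Hmgcs1 was 0 throughout, so a gene is described as listed at 0 and not as absent. Zfp423 was at 3.25 to 4.30 FPKM in AstroEGFR*, 9.73 to 105 in the cells infected with its vector and 0.641 to 2.78 in PT. Cdkn2a, the p16/p19 gene, had values of 3.96 to 130 FPKM in all 10 libraries, and whether these fragments lie outside the deleted part was not tested. Astrocyte markers were present in AstroEGFR*, with 10 of 10 at 1 FPKM or more in every library. In the Zfp423 libraries 7 to 10 of them were, and all 10 were lower than in AstroEGFR* by the fitted difference (median -1.58, none called). Their sum was 346, 84.5 and 1042 FPKM in AstroEGFR*1, *2 and *3 Zfp423, against 627 to 1161 in AstroEGFR*. The summed level of 10 microglia markers was 1527 FPKM in AstroEGFR*1 Zfp423 and 949 in AstroEGFR*2 Zfp423, against 0.156 in AstroEGFR*3 Zfp423 and 0.261 to 40.7 in the other 7 libraries.

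By their median level, the 8 genes fell into those above 1 FPKM and those at 0. Tubb3 had the highest median level over the 10 libraries (27.4 FPKM), followed by Hes6 (21.4), Rest (15.4) and Insm1 (1.25). Tubb3 was above Hes6 in 7 of 10 libraries and Hes6 above Rest in 7 of 10, so these neighbours were not separated, whereas Rest was above Insm1 in 10 of 10. Neurod1, Neurog2, Dcx and Stmn2 had a median of 0 FPKM, and each was listed at 0 in 6 or 7 of the 10 libraries. The highest values of Stmn2 (12.3 FPKM) and Dcx (8.76) were nevertheless above the highest of Insm1 (5.02), whose lowest was 0.0328.

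**Figure D1:**
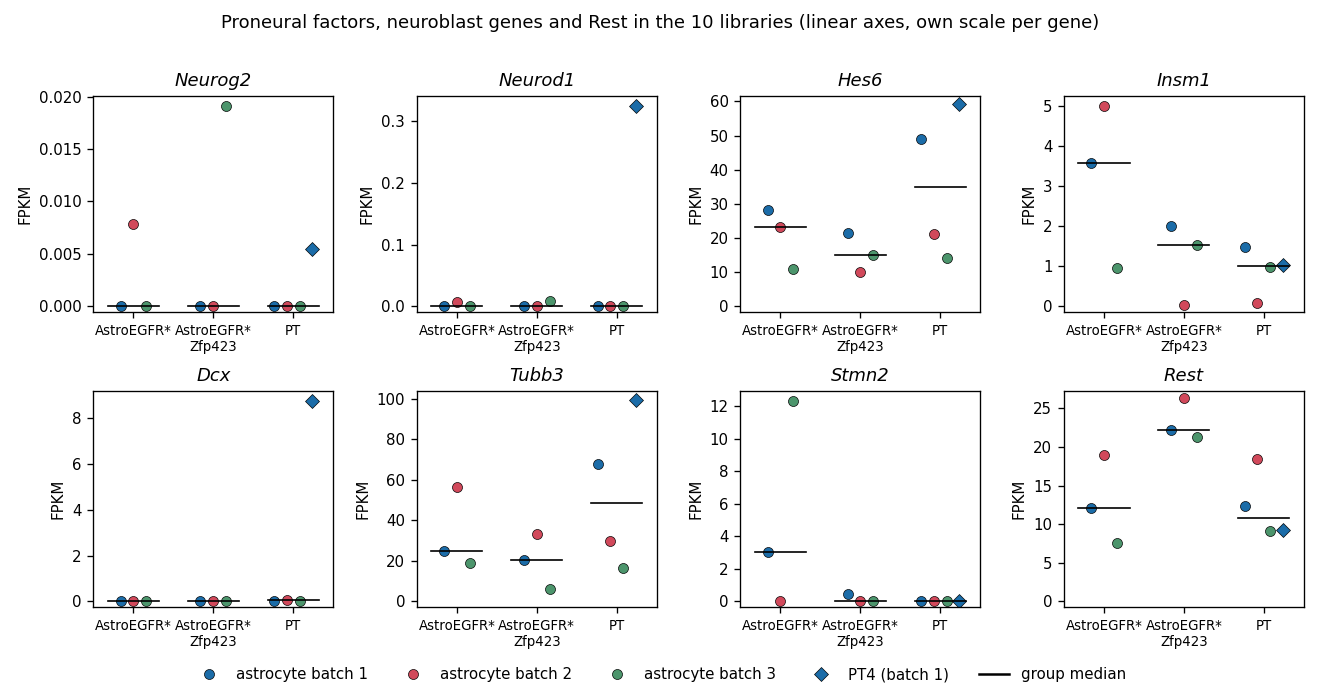
FPKM of the 8 genes in each library, by group on the x axis, with a separate linear y axis for each gene. Points are libraries coloured by astrocyte batch, the diamond is PT4 and the line is the group median. Dcx stands at 8.76 FPKM in PT4 and at 0.0801 or below in the other 9 libraries, and the Rest values of the 3 Zfp423 libraries (21.3 to 26.4 FPKM) lie above those of the other 7.

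Neurog2 and Neurod1 were at or next to 0 in these cells. Neurog2, which starts the glutamatergic programme in cortical progenitors, was listed at 0 in 7 libraries, at 0.00784 FPKM in AstroEGFR*2, at 0.00550 in PT4 and at 0.0191 in AstroEGFR*3 Zfp423. Each of these values is worth 1 or 2 fragments. Neurod1, which acts after Neurog2, was also listed at 0 in 7 libraries, at 0.00690 FPKM in AstroEGFR*2, at 0.00842 in AstroEGFR*3 Zfp423 and at 0.325 in PT4. The PT4 value corresponds to about 71.8 fragments and is the only one above the 3 fragments taken as the floor. Both genes were below the filter of a mean of 1 FPKM in every comparison and were not tested across all features. An exact two-sided permutation test of PT against AstroEGFR* gave p = 0.714 for Neurog2 and 1.0 for Neurod1. The smallest p that 4 libraries against 3 can give, 0.0286, is out of reach where most values are tied at 0. This test could therefore not have shown a difference in either gene.

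Of 11 proneural factors read here, Neurog2 and Neurod1 among them, 1 passed the filter in the comparison of PT with AstroEGFR*: Bhlhe22, a later cortical factor. Bhlhe22 was at 1.54, 3.87 and 1.63 FPKM in AstroEGFR*1, *2 and *3, at 0.555, 0.512, 0.388 and 1.60 across PT1 to PT4, and at 0.122, 0.0929 and 0.978 in the 3 Zfp423 libraries. PT4 was the only PT to reach the range of AstroEGFR*, and all 3 Zfp423 libraries lay below it. The difference was -0.90 between PT and AstroEGFR* (SE 0.41, 4 against 3 libraries, limma adjusted p = 0.395) and -1.25 between Zfp423 and AstroEGFR* (SE 0.54, 3 pairs, limma adjusted p = 0.630), so neither was called.

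Hes6, an atypical Hes protein that opposes Hes1 and favours differentiation, was expressed in all 10 libraries. It was at 28.3, 23.3 and 11.1 FPKM in AstroEGFR*1, *2 and *3. The values were 49.0, 21.1, 14.0 and 59.2 in PT1 to PT4, and 21.6, 9.94 and 15.1 in the 3 Zfp423 libraries. The 2 PT of batch 1 were the highest, PT2 and PT3 were within the range of AstroEGFR*, and all 3 groups overlapped. Within batches, PT differed from its AstroEGFR* by 0.77 (PT1), -0.13 (PT2), 0.32 (PT3) and 1.04 (PT4) in log2(FPKM + 1), the scale of every log2 difference given here, on which the change of a weakly expressed gene is understated. Over the groups, the difference between PT and AstroEGFR* was 0.63 (SE 0.56, 4 against 3 libraries, limma adjusted p = 0.696), and it was 0.25 without AstroEGFR*3, 0.32 without PT4, 0.41 without PT1 and 0.99 without PT3.

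The features most like Hes6 over the 10 libraries, out of 12475 averaging 1 FPKM or more, were Usp51 (r = 0.96), Nup210 (0.96) and Pcdhgc3 (0.96). The sum of 11 oligodendrocyte-lineage markers was 1432 FPKM in PT1 and 1796 in PT4, the libraries with the highest Hes6, and 66.5 to 311 in the other 8. Its part in the Hes6 values was not tested.

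The promoter of Hes6 is shown because proneural proteins bind E-boxes, of the form CANNTG, among them CAGCTG. The table from RefSeq (GRCm38.p6) held promoters for 5 of the 8 genes. Each sequence below is the 250 bases before a start site, read 5′ to 3′ on the gene's strand, with every CANNTG in capitals. The 2 Hes6 windows are chr1:91414039-91414288 and chr1:91413223-91413472, both on the minus strand. The Tubb3 window, chr8:123411303-123411552 on the plus strand, and the Dcx window, chrX:143933220-143933469 on the minus strand, are shown beside them as genes without the motif.
Hes6, first start: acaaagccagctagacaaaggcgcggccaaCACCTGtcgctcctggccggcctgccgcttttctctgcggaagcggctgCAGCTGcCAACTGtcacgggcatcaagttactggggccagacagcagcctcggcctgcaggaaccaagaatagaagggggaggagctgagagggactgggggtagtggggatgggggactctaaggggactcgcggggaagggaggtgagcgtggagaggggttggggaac
Hes6, second start: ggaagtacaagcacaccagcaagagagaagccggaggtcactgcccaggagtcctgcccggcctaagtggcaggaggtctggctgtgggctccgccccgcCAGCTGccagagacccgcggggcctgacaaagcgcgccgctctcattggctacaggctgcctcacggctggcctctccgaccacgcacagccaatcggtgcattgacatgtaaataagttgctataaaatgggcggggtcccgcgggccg
Tubb3: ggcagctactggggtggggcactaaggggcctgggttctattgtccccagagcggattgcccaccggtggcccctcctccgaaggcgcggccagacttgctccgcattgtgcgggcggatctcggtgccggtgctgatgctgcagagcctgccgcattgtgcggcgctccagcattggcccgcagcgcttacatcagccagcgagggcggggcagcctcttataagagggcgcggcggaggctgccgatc
Dcx: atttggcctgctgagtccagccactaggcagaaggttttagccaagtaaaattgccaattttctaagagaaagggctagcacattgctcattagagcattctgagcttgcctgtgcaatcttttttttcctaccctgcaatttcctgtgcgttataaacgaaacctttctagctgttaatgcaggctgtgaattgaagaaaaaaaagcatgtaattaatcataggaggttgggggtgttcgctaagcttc

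CAGCTG, which reads the same on both strands and is one of the forms of CANNTG, stood at -171 from the first Hes6 start and at -150 from the second. It is found in 13.0% of the 32851 windows of this length in the table. CANNTG occurs in 66.2% of them, among these the window of Neurod1, but in none of the windows of Tubb3, Dcx or Neurog2. Neither arm of the RE1 element, searched as TTCAGCACC (0.301% of windows) and GGACAGC (5.28%) on both strands, was found in the windows of these 5 genes. These are matches of letters in a short window and say nothing of binding in these cells.

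Insm1, a zinc-finger factor that promotes the step from progenitor to neuron and to endocrine cell, was lower than Hes6 in every library. It was at 3.57, 5.02 and 0.969 FPKM in AstroEGFR*1, *2 and *3. The values were 1.48, 0.0739, 0.988 and 1.03 in PT1 to PT4, and 2.01, 0.0328 and 1.54 in the 3 Zfp423 libraries. AstroEGFR*1 and *2 stood above all other libraries, while AstroEGFR*3 was within the range of PT. In batch 2 the gene was near 0 in both the PT and the Zfp423 library, at about 11.8 and 4.89 fragments. The difference between PT and AstroEGFR* was -1.06 (SE 0.50, 4 against 3 libraries, limma adjusted p = 0.411). The features most like Insm1 over the 10 libraries were Ttc30a1 (r = 0.95), Lmln (0.94) and Lhx2 (0.93).

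Of 18 genes downstream of proneural factors, Hes6 and Insm1 among them, 9 were tested between PT and AstroEGFR*, and none passed in either direction. Their median difference was 0.58, against 0.03 for all features, and 0.14 without PT4. Gadd45g, a stress and differentiation gene, had the highest mean level of the list, although Rnd3 was above it in 5 of the 10 libraries. It was at 43.5, 33.0 and 60.4 FPKM in AstroEGFR* and at 193, 10.7, 108 and 140 in PT1 to PT4. With Zfp423 it was at 23.9, 15.7 and 33.6, lower than AstroEGFR* in each batch (difference -0.90, SE 0.20, 3 pairs, limma adjusted p = 0.628). PT2, the only PT below the AstroEGFR* range, kept the 2 groups overlapping.

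Dcx was above 0.1 FPKM in a single culture. This gene encodes doublecortin, a microtubule-binding protein that is the usual label of migrating neuroblasts. It was listed at 0.00249, 0 and 0 FPKM in AstroEGFR*1, *2 and *3 and at 0 in all 3 Zfp423 libraries. In PT it was listed at 0.0190, 0.0801, 0 and 8.76 in PT1 to PT4. The PT4 value corresponds to about 6438 fragments, against 14.2 in PT1 and 37.5 in PT2. PT1 and PT4 came from the same astrocyte batch and had the highest correlation of any pair of libraries (r = 0.96 over features), yet only PT4 had Dcx above 0.1 FPKM. The gene passed the filter through PT4 alone, and no difference was called (PT minus AstroEGFR* 0.86, SE 0.85, 4 against 3 libraries, limma adjusted p = 0.734).

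Other genes of neuroblasts and young neurons were also highest in PT4. Of 25 such genes in the file, 22 averaged 1 FPKM or more in PT, and 15 of these (68.2%) were highest in PT4. Among all 11944 features that passed the same filter, 21.9% were highest there. With the filter set on PT1, PT2 and PT3 alone, so that a gene could not enter through PT4, the counts were 9 of 16 genes (56.2%) against 20.5% of 11783 features. This count and the genes named next were chosen after the values were seen. Stmn3, a relative of Stmn2, was at 1.63, 0.788, 0 and 31.5 FPKM across PT1 to PT4. Elavl3, a neuronal RNA-binding protein, was at 0.291, 0.102, 0 and 5.55. Stmn3 and Elavl3 passed the filter through PT4 alone and are not among the 9 genes. Mapt, which encodes the microtubule protein tau, was at 7.03, 10.7, 1.41 and 49.6.

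**Figure D2:**
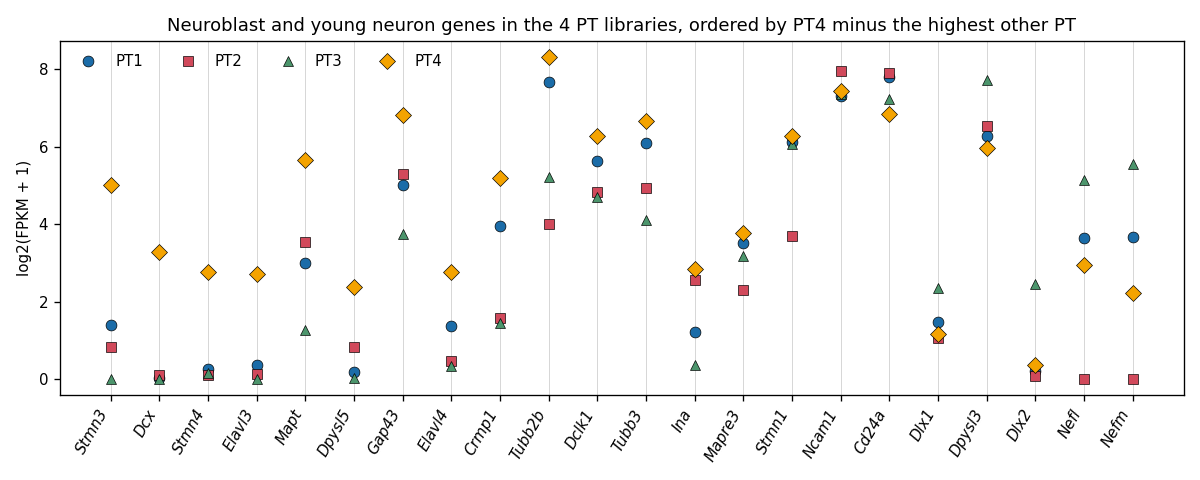
Levels in log2(FPKM + 1) of the 22 neuroblast and young neuron genes averaging 1 FPKM or more in PT, with 1 symbol for each of the 4 PT libraries, ordered by how far PT4 lies above the highest of the others. PT4 is the highest library for 15 of the 22 genes, Dcx among them, and PT3 for 5.

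Most markers of mature neurons were low in PT. Of 11 such markers, 1 reached 1 FPKM in PT4, Syn1, which was at 2.46, 0.346, 0.273 and 5.08 across PT1 to PT4. The sum was 8.11 FPKM in PT4 and 5.31 to 19.8 in the other PT, where most of it was Gad1 in PT2 (6.26) and Gad2 in PT3 (17.8). PT4 had the highest median of the 11 (0.122 FPKM, against 0 to 0.0481) and the fewest listed at 0 (1, against 3 to 7), while Rbfox3, Slc17a6 and Slc32a1 were at 0.00428 FPKM or below in it. PT4 was also the highest PT for other groups of genes. Of the oligodendrocyte-lineage markers, all 8 that averaged 1 FPKM or more in PT were highest in PT4, and 5 of 5 with the filter set on PT1, PT2 and PT3. With the latter filter, among the Notch and Id genes that oppose proneural factors 6 of 10 were, and among known targets of Rest 5 of 11 were (45.5%), against the 20.5% of all features, so a high share in PT4 was not particular to the neuroblast genes. Olig1, the oligodendrocyte-lineage marker with the highest mean, was at 1000.3, 69.3, 89.8 and 1089 FPKM across PT1 to PT4, nearly as high in PT1 as in PT4. Sox10, the defining factor of that lineage, named after its values were seen, was at 8.18, 0.103, 0 and 117. Immature oligodendrocyte precursors can also contain Dcx, and the part of either lineage in the PT4 values was not tested.

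Tubb3, the neuronal class of beta-tubulin, was detected in all libraries. It was at 25.1, 56.4 and 19.1 FPKM in AstroEGFR*1, *2 and *3. The values were 67.7, 29.7, 16.4 and 99.4 in PT1 to PT4. PT1 and PT4 were above every AstroEGFR* library, PT2 and PT3 were each below the AstroEGFR* of their batch, and the groups overlapped. The difference was 0.49 (SE 0.65, 4 against 3 libraries, limma adjusted p = 0.815), and by batch it was 1.40 (PT1), -0.90 (PT2), -0.21 (PT3) and 1.95 (PT4). Single libraries moved it by more than 1.5 times, to 0.09 without PT4, 0.28 without PT1, 0.18 without AstroEGFR*3, 0.93 without AstroEGFR*2 and 0.94 without PT3. Tubb3 and Hes6 were thus highest in the same 2 libraries (r = 0.70 and rho = 0.62 over 10 libraries, as a description). The features most like Tubb3 were Ung (r = 0.94), 6430706D22Rik (0.93) and Solh (0.92).

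With Zfp423, Tubb3 was at 20.6, 33.5 and 6.23 FPKM, below the AstroEGFR* of the same batch in 3 of 3 pairs. A lower value in every pair was seen in 15.2% of all 12366 features tested. The paired difference was -0.83 (SE 0.31, 3 pairs, limma adjusted p = 0.628), -0.50 without batch 3 and -1.45 with equal sums of FPKM in every library, and the groups overlapped. An exact permutation test within pairs gave p = 0.25, the smallest it can give.

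Stmn2, a stathmin that destabilises microtubules in growing axons and a classical target of Rest, was above the floor of 3 fragments in 3 of the 10 libraries. It was at 3.04, 0 and 12.3 FPKM in AstroEGFR*1, *2 and *3. In PT it was listed at 0 in PT1, PT2 and PT3 and at 0.00649 in PT4, which is about 1 fragment. With Zfp423 it was listed at 0.468, 0 and 0. The high values thus belonged to AstroEGFR*1 and *3, and AstroEGFR*2, at 0, kept the groups overlapping. PT minus AstroEGFR* was -1.92 (SE 0.79, 4 against 3 libraries, limma adjusted p = 0.349; exact permutation p = 0.143), and -2.87 without AstroEGFR*2. The gene passed the filter through AstroEGFR*1 and *3 alone, the libraries where it was high, and fell below it without AstroEGFR*3. The features most like Stmn2 were Inmt (r = 0.97), Epyc (0.96) and Notum (0.96). The sum of 10 markers of fibroblasts and meninges was highest among AstroEGFR* in AstroEGFR*3 (8616 FPKM, against 1812 and 1668 in *1 and *2) and was 21.9 to 415 in PT. It was 9299 in AstroEGFR*2 Zfp423, where Stmn2 was listed at 0, and its part in the Stmn2 values was not tested.

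Across the neuroblast and young neuron genes as a whole, none of 21 tested was called between PT and AstroEGFR*, 6 having an unadjusted limma p below 0.05 (13.6% of all features), with 12 higher and 9 lower in PT. The median difference was 0.49, against 0.03 over all features, and 0.03 without PT4. With Zfp423 none of 16 passed, 5 higher and 11 lower, with a median of -0.88 against 0.02 over all features. Of these 16, 6 had an unadjusted limma p below 0.05, against 7.38% of all features. Of the markers of other cell types in the same comparison, the fitted differences had a median of -1.58 for the 10 astrocyte markers and -1.61 for the 8 neural progenitor markers tested, every one of them lower and none called, whereas all 10 microglia markers were higher (median 3.08, none called). Their part in the values of the neuroblast genes, Tubb3 and Id3 was not tested. The 3 neuroblast and young neuron genes with the highest mean level were the adhesion molecules Ncam1 and Cd24a and the growth-cone protein Dpysl3. Ncam1 was at 95.4 to 145 FPKM in AstroEGFR*, 158 to 246 in PT and 136 to 150 with Zfp423. Cd24a was at 96.9 to 263 FPKM in AstroEGFR*, 114 to 238 in PT and 9.61 to 98.6 with Zfp423. Dpysl3 was at 75.2 to 227, 61.5 to 208 and 77.0 to 170 in the same order. The ranges of PT and AstroEGFR* met for Cd24a and Dpysl3, while those of Ncam1 did not overlap. Groups that do not overlap with PT higher were found in 6.95% of all features.

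Rest was expressed in all 10 libraries, from 7.50 to 26.4 FPKM, the narrowest range in log2(FPKM + 1) of the 4 genes detected throughout. It was at 12.1, 18.9 and 7.50 FPKM in AstroEGFR*1, *2 and *3, and at 12.4, 18.4, 9.13 and 9.26 in PT1 to PT4. With Zfp423 it was at 22.2, 26.4 and 21.3. Batch 2 was the highest within each group. PT and AstroEGFR* covered nearly the same range, and the 3 Zfp423 libraries lay above all others. The make-up of the libraries moved with these values. Small RNA and histone features took 29.7% of the FPKM in AstroEGFR*2, 34.4% in PT2 and 35.8%, 36.1% and 54.8% in the 3 Zfp423 libraries, and 0.801% to 6.12% in the other 5. The 5 libraries with the high share were the 5 with the highest Rest (18.4 to 26.4 FPKM, against 7.50 to 12.4), and its part in the Rest values was not tested. The features most like Rest over the 10 libraries were Mib1 (r = 0.97), Cdk13 (0.97) and Rock1 (0.96).

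In the comparison of Zfp423 with AstroEGFR*, Rest was higher in 3 of 3 pairs, by 0.83, 0.46 and 1.39 in batches 1, 2 and 3. Of all features, 16.3% were higher in every pair and 5.68% had groups that did not overlap in this direction (5.87% in the other). The paired difference was 0.89 (SE 0.28, 95% interval 0.13 to 1.65, limma unadjusted p = 0.0305, adjusted p = 0.628), so it was not called, and over the alternatives the adjusted p was 0.343 to 1.0. Scaling each library to the same sum of FPKM, which moved the median of all features to -0.57, gave 0.26. The microglia markers given above differed between these libraries, and their part in the Rest values was not tested. Without batch 3 the difference was 0.64.

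Against PT, the Zfp423 libraries were also higher in Rest. PT minus AstroEGFR* Zfp423 was -0.92 (SE 0.28, 4 against 3 libraries, limma unadjusted p = 0.0129, adjusted p = 0.243; exact permutation p = 0.0571). With equal sums of FPKM it was -0.30, where the median of all features moved to 0.56. Groups that do not overlap in this direction were found in 7.28% of features (7.23% in the other). This comparison and the previous one share the Zfp423 libraries. Between PT and AstroEGFR* the difference in Rest was -0.03 (SE 0.37, 95% interval -0.89 to 0.83, limma adjusted p = 0.986). Its sign turned when single libraries were left out.

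**Figure D3:**
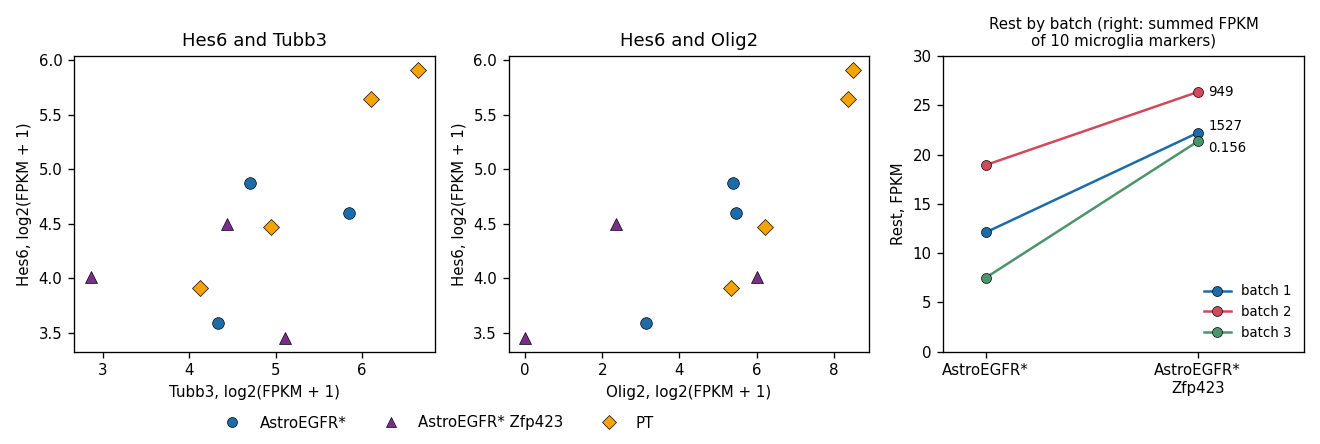
Left and centre, Hes6 against Tubb3 and against Olig2, an oligodendrocyte-lineage factor, in log2(FPKM + 1), with 1 symbol for each library and a shape for each group. Right, Rest in FPKM in the 3 astrocyte batches without and with Zfp423, beside the summed FPKM of 10 microglia markers in the Zfp423 library. Hes6 is highest in PT1 and PT4, and Rest is higher with Zfp423 in all 3 batches. The part of the microglia markers in these values was not tested.

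The partners and regulators of Rest had median differences close to those of all features. Of 22 genes including Rest, 21 were tested in each comparison and none was called. The median difference was -0.04 for PT against AstroEGFR* and 0.09 for Zfp423 against AstroEGFR*, next to 0.03 and 0.02 over all features. The 3 with the highest mean level were the deacetylase Hdac2 (67.0 to 158 FPKM over all libraries), the scaffold Sin3b (62.6 to 140) and the phosphatase Ctdsp2 (31.1 to 119). The gene that came nearest to the threshold was Rcor2, a CoREST corepressor of neural progenitors, named here after its values were seen. Rcor2 was at 1.73, 1.76 and 1.34 FPKM in AstroEGFR* and at 38.9, 7.91, 9.95 and 31.8 in PT1 to PT4. The groups did not overlap, as in 6.95% of all features with PT higher. The difference was 2.86 (SE 0.56, 4 against 3 libraries, limma adjusted p = 0.0641). With Zfp423 it was at 3.29 FPKM or below in all 3 libraries.

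Known targets of Rest, a list of 28 that holds Tubb3 and Stmn2, were low in most libraries. At least 1 FPKM was reached by 9 to 10 of them in AstroEGFR*, 7 to 14 in PT and 6 to 8 with Zfp423. None of 15 tested was called between PT and AstroEGFR*, with 10 higher and 5 lower. Of these 15, 3 had an unadjusted limma p below 0.05, as did 13.6% of all features. The median was 0.49, against 0.03 over all features, and -0.17 without PT4. With Zfp423, where Rest was highest, none of 10 passed, and 5 were higher and 5 lower. The median was -0.41, against 0.02 over all features. By the fitted differences given above, astrocyte and neural progenitor markers were lower and microglia markers higher in this comparison. Their part in the values of the Rest targets was not tested. Scg3, a secretory-granule protein and the highest of the list by mean level apart from Tubb3, was at 49.7, 16.7 and 10.4 FPKM in AstroEGFR*, 11.8, 15.5, 11.7 and 42.0 in PT, and 9.96, 0.0462 and 8.68 with Zfp423. Mapk8ip1, a kinase scaffold, was at 16.3 to 24.5 FPKM in AstroEGFR*, 10.6 to 33.7 in PT and 3.67 to 15.3 with Zfp423. Rundc3a was at 2.12 to 8.04 FPKM in AstroEGFR*, 10.9 to 30.4 in PT and 2.28 to 11.8 with Zfp423.

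The Notch and Id genes that hold proneural factors in check were also read. Of 13, 10 were tested between PT and AstroEGFR*, 2 higher and 8 lower, and none was called (median -0.65, against 0.03 over all features). The Id proteins pair with the partners of proneural factors and block their binding to DNA. Id3 was at 714, 491 and 309 FPKM in AstroEGFR* and at 148, 51.8, 75.0 and 201 in PT1 to PT4, with no overlap (difference -2.19, SE 0.53, limma adjusted p = 0.116). With Zfp423 Id3 was at 251, 228 and 137, below its AstroEGFR* in each batch (difference -1.26, SE 0.31, limma adjusted p = 0.628). Id1 was at 256, 123 and 70.5 FPKM in AstroEGFR* and at 66.6, 15.1, 65.0 and 56.3 in PT. Id2 was at 35.4 to 212 FPKM in AstroEGFR* and 72.9 to 137 in PT. Of these 3, Id1 and Id3 were lower in every PT than in any AstroEGFR*, and Id2 overlapped. Groups that do not overlap with PT lower were found in 7.81% of all features. The 10 markers of fibroblasts and meninges were also lower in PT, with a median of -3.94 and 3 of 10 called, and their part in the values of the Notch and Id genes was not tested.

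In all, none of the 6 genes tested between PT and AstroEGFR* passed an adjusted p of 0.05, where 152 of 12261 features (1.24%) did. That count was 475 with the astrocyte batch as a block, 7 without AstroEGFR*1 and 54 to 123 without any other single library. No member separated these groups without overlap, which 6.95% of features did with PT higher and 7.81% with PT lower. In the comparison of Zfp423 with AstroEGFR*, 5 were tested and none was called, as for all 12366 features (0.0%). There, 913 features had an unadjusted limma p below 0.05 (7.38%), Rest among them, and the fit without the batch as a block called 2. Between PT and Zfp423, 2 of 12412 features were called (0.0161%) and none of the 5 members tested. The other differences in that comparison were 1.00 for Hes6 (SE 0.53), 1.32 for Tubb3 (SE 0.73), 0.86 for Dcx (SE 0.87) and -0.14 for Insm1 (SE 0.54), and that of Tubb3 was 0.68 without AstroEGFR*3 Zfp423. That of Hes6 was 1.62 with equal sums. That of Insm1 was 0.20 with equal sums, 0.11 without PT2 and -0.61 without AstroEGFR*2 Zfp423. For Zfp423 against AstroEGFR* they were -0.37 for Hes6 (SE 0.37), -0.93 for Insm1 (SE 0.69) and -1.73 for Stmn2 (SE 0.86). Without batch 2 that of Insm1 was -0.12 and that of Stmn2 -2.60, without batch 3 that of Insm1 was -1.57, that of Hes6 was 0.0236 without batch 2, -0.76 without batch 3 and -0.998 with equal sums, and without AstroEGFR*3 Zfp423 that of Stmn2 was -0.73. The intervals of Hes6 leave room for changes of more than 1 on the log2 scale, so that the tests do not show the groups to be alike. They were -0.66 to 1.92 between PT and AstroEGFR* and -1.38 to 0.65 between Zfp423 and AstroEGFR*. The interval of Dcx between PT and AstroEGFR* (-1.11 to 2.82) rests on PT4 alone. Its lower end could not be reached, since the mean of AstroEGFR* was 0.0012 in log2(FPKM + 1). Nor could that of Insm1 between PT and Zfp423 (-1.39 to 1.11), where the Zfp423 mean was 0.993.

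**Figure D4:**
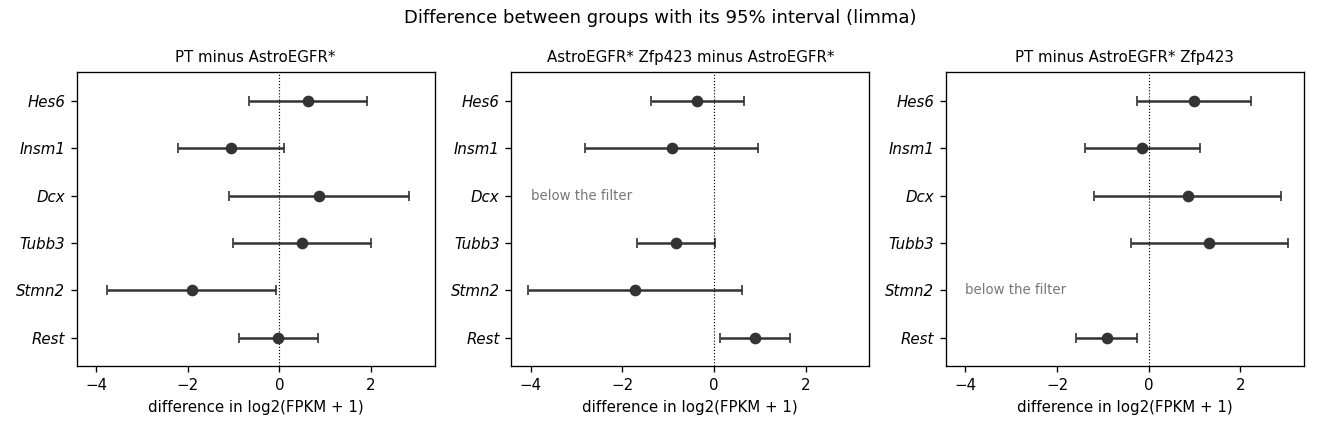
Difference in log2(FPKM + 1) between the group means for the tested genes in the 3 comparisons, with points for the limma estimate and bars for its unadjusted 95% interval, and the dotted line at 0. Neurog2 and Neurod1 were below the filter throughout. The interval of Rest lies above 0 for Zfp423 against AstroEGFR* (0.13 to 1.65) and below 0 for PT against Zfp423 (-1.58 to -0.26), that of Stmn2, which passed the filter through AstroEGFR* alone, lies below 0 for PT against AstroEGFR* (-3.76 to -0.07), and no difference passed the adjusted threshold.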

How the data were processed

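RNA of 10 cultures was sequenced, with 1 library for each. The authors deposited 1 matrix of FPKM values for 23230 features named by gene symbol, which the submitters' processing notes tie to TopHat 1.3, Cuffnorm and the mouse assembly mm9. The labels and the paper differ on the library kit. FPKM are not counts, so no count model was used. All 10 columns were used. The step between low values, read over single-transcript genes of at least 1000 nucleotides, gave the estimated depth, and fragments of a gene were estimated with its longest coding transcript (GENCODE, GRCm38). Both are approximate.

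Groups were compared on log2(FPKM + 1) over features averaging 1 FPKM or more, with limma 3.58.1 in R 4.3.3 (empirical Bayes with a trend, Benjamini-Hochberg adjustment over all features tested, threshold 0.05). The Zfp423 comparison had the astrocyte batch as a block, since the same batch was cultured with and without the vector. In the other comparisons the block was an alternative, because the sources used here do not say that the study's test was paired, and the batch of a PT comes from the paper's figure labels, not from the sample labels. PT and AstroEGFR* of the same batch deviated together (correlations 0.35 to 0.50), and those of Zfp423 and AstroEGFR* were 0.24, -0.11 and -0.26. Exact permutation tests were two-sided. As alternatives served a pseudocount of 0.1, the table without the filter, median-ratio and equal-sum scaling, no variance trend, all 10 libraries in 1 fit, a fold change of at least 2, PT1 and PT4 averaged, the block or none, and libraries left out. Promoters came from RefSeq (GRCm38.p6), whose coordinates are not those of mm9. The paper calls the astrocyte batches independent, and the animals behind each culture are not given in the sources used here, so p-values measure the spread between these cultures.

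The members and gene lists were chosen with earlier results of these data known. Named were all 8 members, from each pathway list the genes that passed or else the 3 with the highest mean FPKM, the 3 features most like each member, and Zfp423 and Cdkn2a as checks of the labels. Stmn3, Elavl3, Mapt, Rcor2, Sox10, Rbfox3, Slc17a6 and Slc32a1 fall outside this rule and were named after their values were seen. Egfr, also read as a check, counts mouse fragments and possibly those of the human vector, and ranged from 7.81 to 362 FPKM. Of 182 list symbols 181 were found, and Map2 was not. An item withheld from the text is not reported here. Endothelial and neural progenitor markers were read as well. The endothelial sum was 0.426 to 14.9 FPKM, and none of 9 progenitor markers tested between PT and AstroEGFR* was called (median -0.16, and -1.61 with Zfp423). Python 3.11.15, numpy 2.4.6, pandas 2.3.3, scipy 1.17.1 and matplotlib 3.10.9 were used.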

Additional observations from a re-analysis of the deposited data

Results flagged for a closer look

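In PT, 4 of the 8 genes had 1 library far from the other 3, by the gap to the nearest library over the whole range in log2(FPKM + 1) (Dixon's ratio). PT4 was that library each time, at 1.0 for Neurog2, 1.0 for Neurod1, 0.966 for Dcx and 1.0 for Stmn2. For Neurog2 and Stmn2 the PT4 value is worth about 1 fragment, and a ratio of 1.0 is reached by any single value above 0 among zeros. For values spread normally, chance gives a ratio above the critical value used here in about 1 of 20 groups, a rate that does not hold for values mostly at 0.

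In 3 genes both PT of batch 1 differed from their AstroEGFR* in one direction and a PT of another batch in the opposite one, a difference that was not tested. Both PT of batch 1 were higher in Hes6 and in Tubb3 than AstroEGFR*1, whereas PT2 was lower in Hes6 (-0.13), PT2 was lower in Tubb3 (-0.90) and PT3 was lower in Tubb3 (-0.21). For Insm1 both PT of batch 1 were lower, and PT3 stood 0.0136 above AstroEGFR*3, both shallow libraries.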

How the results depend on the processing

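No member was called under any alternative in the 3 comparisons, and of the member differences 244 kept their direction and 8 did not. Rest in PT against AstroEGFR* became 0.0168 with PT1 and PT4 averaged, and with single libraries left out it ran from -0.34 (without AstroEGFR*3) to 0.28 (without AstroEGFR*2), positive also without PT3 (0.09) or PT4 (0.08). Hes6 with Zfp423 ran from -0.76 without batch 3 to 0.0236 without batch 2, and was -0.998 with equal sums. Insm1 in PT against Zfp423 became 0.20 with equal sums, and ran from -0.61 without AstroEGFR*2 Zfp423 to 0.11 without PT2. Equal sums moved the median of all features to -0.57 for Zfp423 against AstroEGFR* and to 0.56 for PT against Zfp423. The filter removed Dcx without PT4, Stmn2 without AstroEGFR*3 and Insm1 under some alternatives for PT against Zfp423, where 13 gave a value.

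Counts over all features were less stable. For PT against AstroEGFR* (152) they were 61 with PT1 and PT4 averaged, 82 with all 10 libraries, 84 with equal sums, 8 without replicate 3 of both groups (both shallow), and 7 to 123 with single libraries left out. For Zfp423 against AstroEGFR* (0) they were 0 to 60 with single libraries left out. For PT against Zfp423 (2) they were 0 with PT1 and PT4 averaged, 28 with all 10 libraries, 5 with equal sums, 589 without replicate 3 of both groups (of which PT3 alone is shallow), 0 without the filter, 0 with a pseudocount of 0.1 and 0 to 629 with single libraries left out (629 without AstroEGFR*3 Zfp423, 4 without PT3). The cause was not tested.

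With the replicate block, 475 features were called for PT against AstroEGFR* and 20 for PT against Zfp423, and without the block 2 for Zfp423 against AstroEGFR*. It changed no call of a member. For PT against AstroEGFR*, the block gave 0.42 for Hes6 (SE 0.24), 0.33 for Tubb3 (SE 0.51) and -0.0011 for Rest (SE 0.19). With it, Insm1 was at -1.15 (SE 0.49), Stmn2 at -1.93 (SE 0.69) and Dcx at 0.69 (SE 0.90). Depth limits AstroEGFR*3 and PT3, where 3 fragments of Neurog2 are worth 0.227 and 0.174 FPKM.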
